A study of Mus musculus with 3 samples.

Results

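The genes described here are 35 members of the endoplasmic reticulum (ER) protein-folding machinery and of the unfolded protein response, among 15394 genes measured on 1-colour mouse expression arrays. They were chosen by name, by matching the transcript that each array probe was designed for to the gene's symbol. Earlier results of these data were known at that point. They fall into 15 ER chaperones and folding enzymes, 6 genes of ER-associated degradation, 3 stress sensors with the transcription factor Xbp1, and 10 genes of the branch governed by the transcription factor ATF4. All 35 were measured, and on all 3 arrays 34 of them exceeded the background mark of the scanner software (well above background). The exception was Derl3, which did not reach that level on the adherent array.

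The cells were cardiac myofibroblasts, the contractile and matrix-producing fibroblasts of the injured heart. They came from pooled hearts of male C57BL/6J mice, taken 3 days after the left anterior descending artery had been tied off for good. The labels give the age as 8 weeks in one field and as 10 weeks at ligation in another. The cells that attached to plastic overnight were depleted of cells bearing CD45, a leukocyte surface protein. Adherent cells were grown on plastic plates, non-adherent cells were held in suspension, and re-adherent cells were returned from suspension to plates. The question was which genes respond when the cells lose and regain a stiff support. Each state had 1 array, so no difference given here was tested and none has a replicate check. The states were collected one after another, so time in culture and state cannot be told apart.

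The ER folds secreted and membrane proteins, among them the collagens that fibroblasts release in large amounts. When unfolded proteins accumulate there, the sensors IRE1, ATF6 and PERK respond. IRE1 splices the mRNA of Xbp1, and XBP1 and ATF6 act on genes for chaperones and for the removal of misfolded proteins. PERK phosphorylates the initiation factor eIF2α, which slows translation in general and favours translation of ATF4. ATF4 in turn acts on genes for amino acid synthesis, amino acid transport and stress signalling, and it can also be engaged by other eIF2α kinases that respond to amino acid shortage, double-stranded RNA or haem shortage. ATF4 is largely controlled at translation, and splicing of Xbp1 mRNA, cleavage of ATF6 and phosphorylation of PERK were not measured here.

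The promoters are shown first, since the chaperones and the ATF4 branch carry different known elements. Windows from 250 bases before to 50 bases after the gene start were taken from RefSeq on assembly GRCm38.p6, and 31 of the 35 genes had one (Atf6, Derl1, Hyou1 and Manf had none in the table used). They were searched on both strands for the ER stress response element (ERSE), spelled CCAAT and CCACG with 9 unspecified bases between them, for ERSE-II, spelled ATTGG and CCACG with 1 base between them, for the UPR element TGACGTGG, and for the core of the composite site bound by C/EBP and ATF proteins (CARE), TGATGNAA. ERSE was found in 9 of the 31 genes, against 0.137% of the 27025 genes with a window. ERSE-II was found in 2 of 31 against 0.0444%, CARE in 4 of 31 against 4.51%, and the UPR element in 0 of 31 against 0.714%. A match is a description of the letters only. The elements were already known for these pathways and the genes were chosen by pathway, so the excess over all genes is not a finding about the set. The 250 bases upstream of Hspa5, which encodes the main ER chaperone BiP, are printed 5′ to 3′ on the gene's strand, with the fixed letters of its ERSE in capitals.
Hspa5 (chr2:34771840-34772089, plus strand): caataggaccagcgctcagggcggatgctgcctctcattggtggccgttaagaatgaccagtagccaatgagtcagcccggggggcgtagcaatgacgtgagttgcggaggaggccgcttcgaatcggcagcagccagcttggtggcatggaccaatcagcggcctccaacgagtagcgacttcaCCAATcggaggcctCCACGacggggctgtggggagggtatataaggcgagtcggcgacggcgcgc

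The other ERSE matches are shown as 30-base stretches on the gene's strand, because they recur across the chaperones and lie in none of the 10 ATF4-branch genes. Where the element lies on the opposite strand, its fixed letters appear as CGTGG and ATTGG.
Calr (chr8:84847069-84847098, minus strand): caacgCGTGGtcgaccctcATTGGcccata
Derl3 (chr10:75893237-75893266, plus strand): tctacCGTGGgacttccccATTGGctagcc
Hsp90b1 (chr10:86705632-86705661, minus strand): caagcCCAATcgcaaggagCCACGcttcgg
Hsp90b1 (chr10:86705527-86705556, minus strand): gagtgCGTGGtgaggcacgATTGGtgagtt
Canx (chr11:50325794-50325823, minus strand): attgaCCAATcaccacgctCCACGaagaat
Pdia6 (chr12:17266486-17266515, plus strand): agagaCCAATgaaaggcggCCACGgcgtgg
Dnajc3 (chr14:118937822-118937851, plus strand): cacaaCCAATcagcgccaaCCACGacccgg
Creld2 (chr15:88819515-88819544, plus strand): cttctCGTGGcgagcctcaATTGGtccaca
Syvn1 (chr19:6046527-6046556, plus strand): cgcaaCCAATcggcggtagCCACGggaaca

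The ERSE-II matches follow in the same format. The match in Dnajb11 begins after the gene start.
Herpud1 (chr8:94386368-94386397, plus strand): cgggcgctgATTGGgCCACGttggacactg
Dnajb11 (chr16:22857843-22857872, plus strand): ccggcggcgATTGGcCCACGcctggctgct

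For the ATF4 branch the 250 bases upstream of Asns, the gene for asparagine synthetase, are printed with the fixed letters of its CARE in capitals.
Asns (chr6:7693210-7693459, minus strand): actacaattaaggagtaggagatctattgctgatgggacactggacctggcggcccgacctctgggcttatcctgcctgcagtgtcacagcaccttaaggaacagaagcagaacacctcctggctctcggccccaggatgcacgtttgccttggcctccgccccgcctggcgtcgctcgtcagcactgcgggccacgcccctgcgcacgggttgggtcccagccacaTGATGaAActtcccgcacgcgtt

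The remaining CARE matches are given as 30-base stretches, as the reverse complement where the element lies on the opposite strand. The match in Trib3 begins after the gene start, and Herpud1, a gene of ER-associated degradation, holds both a CARE and an ERSE-II.
Chac1 (chr2:119351038-119351067, plus strand): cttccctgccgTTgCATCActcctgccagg
Trib3 (chr2:152344028-152344057, minus strand): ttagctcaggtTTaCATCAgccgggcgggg
Herpud1 (chr8:94386306-94386335, plus strand): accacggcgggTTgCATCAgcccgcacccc

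**Figure D1:**
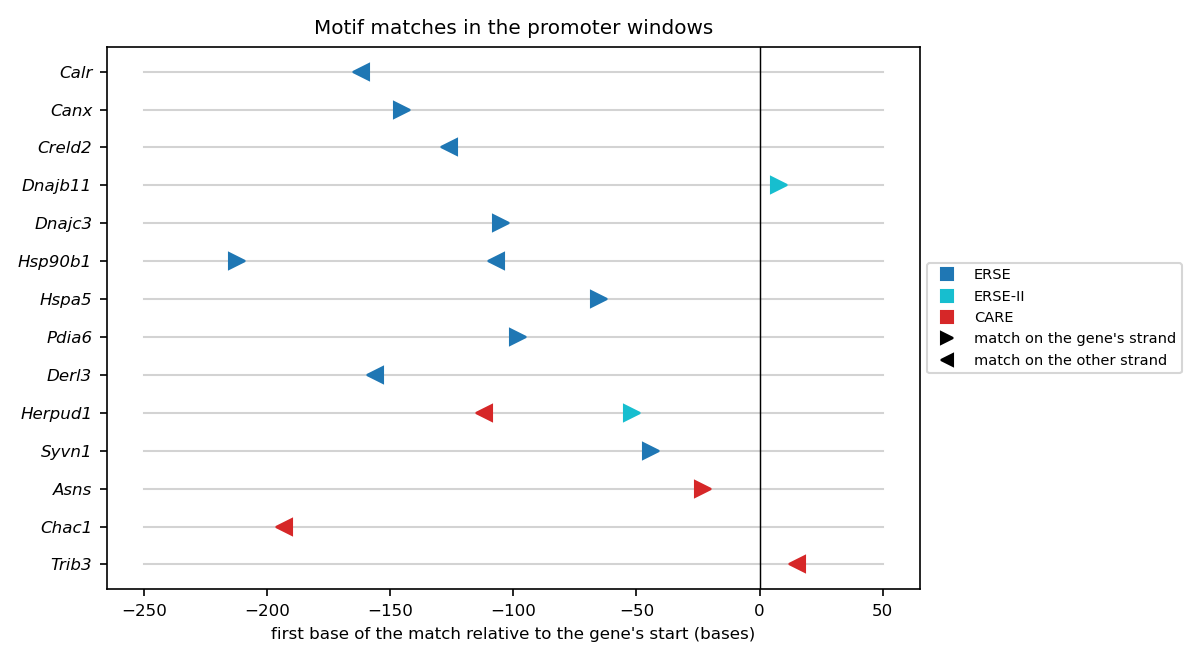
Positions of ERSE, ERSE-II and CARE matches in the promoter windows of the 14 genes that hold at least 1 match; the x axis is the distance in bases from the gene start, and the arrowheads give the strand. ERSE matches lie only in genes of chaperones and of degradation, and CARE matches in Asns, Chac1, Trib3 and Herpud1.

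Levels are given as the log2 of the spot signal minus the 75th percentile of its array, and a difference is the log2 level of 1 array minus that of another. The error beside a difference combines the errors that the scanner software assigned to both spots. It is technical, and its median over all genes was 0.20 in each pair of arrays. Counts use a 2-fold mark. The median difference of all genes was -0.07 from adherent to non-adherent cells, 0.08 from non-adherent to re-adherent cells and 0.06 between re-adherent and adherent cells. With the arrays scaled on the E1A spike-in probes in place of the percentile, these medians became -0.27, -0.20 and -0.41. List medians are therefore also given relative to all genes. Between re-adherent and adherent cells, 18 of the 35 genes took the other sign under at least 1 scaling, so the closeness of these states described below holds for the percentile scaling.

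The chaperones and folding enzymes were, as a list, modestly lower in suspension. Of the 15 genes, 13 were lower in non-adherent cells than in adherent cells, each by more than its technical error. Sdf2l1 was higher, and so was Dnajb9 by the probe used, although its second probe was lower (-0.23). Over all genes, 53.2% were lower by any amount and 42.1% by more than the technical error. The median difference of the list was -0.48, or -0.41 relative to all genes, and 13 genes stayed lower under each of the 5 other array scalings tried. For Hspa5 and Canx the smallest differences over the scalings, -0.15 and -0.13, lay within the technical error of 0.20. The differences were small: 1 of 15 genes, Manf, was over 2-fold lower, against 14.7% of all genes, and 0 of 15 were over 2-fold higher, against 17.2%.

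Hspa5 had a level of 7.22 in adherent, 6.70 in non-adherent and 6.88 in re-adherent cells. By the percentile scaling it was thus highest in adherent cells and lowest in suspension, with a difference of -0.52 ± 0.20 into suspension. Over the scalings that difference ranged from -0.71 to -0.15. Hsp90b1, the ER form of HSP90, had levels of 6.75, 6.09 and 6.26 in the same order, a difference of -0.66 ± 0.20 into suspension. On return to plates the differences of Hspa5 and Hsp90b1 were 0.18 and 0.17, below the technical error of 0.20, and both were negative under 4 of the 5 other scalings (-0.46 and -0.41 with quantile normalization). Hyou1, an HSP70-like chaperone that works with BiP, had levels of -1.30, -2.01 and -1.67.

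The lectin chaperones hold glycoproteins until they are folded. Calr (calreticulin) had levels of 5.93, 5.30 and 6.04, so that the re-adherent array returned to the adherent level within error. Its difference was -0.63 into suspension and 0.74 on return. Canx (calnexin), its membrane-bound relative, had levels of 5.38, 5.11 and 5.30, and its difference into suspension, -0.27 ± 0.20, was the smallest among the 13 lower genes.

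The protein disulfide isomerases form and rearrange disulfide bonds. Pdia6 had levels of 7.42, 6.81 and 7.14, and its second probe gave -0.57 into suspension beside -0.61 for the probe used. P4hb, which also serves as a subunit of the collagen prolyl 4-hydroxylase, had levels of 5.70, 5.28 and 5.72. Pdia3, the partner of the lectin chaperones, had levels of 4.07, 3.67 and 3.98, and Pdia4 levels of 1.87, 1.39 and 1.58. All 4 isomerases were thus lowest in suspension, by -0.40 to -0.61, and their differences on return lay between 0.19 and 0.44.

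Manf, a secreted protein that binds BiP, showed the largest difference among the chaperones, with levels of 4.62, 3.36 and 4.25. It was 2.39-fold lower in suspension (-1.26 ± 0.20) and 1.85-fold higher on return. Creld2, another ER stress-induced secreted protein, had levels of 5.54, 4.75 and 5.18 and a difference into suspension of -0.80 ± 0.06.

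The J-domain proteins, which deliver substrates to BiP and drive its ATPase, did not share a direction. Dnajb11 had levels of 4.08, 3.72 and 4.01, and Dnajc3 levels of 2.67, 2.27 and 2.22. Dnajb9 was higher in suspension, with levels of 1.24, 1.72 and 1.39 (0.48 ± 0.20), but its second and dimmer probe gave -0.23. Sdf2l1, which forms a complex with the Dnajb11 protein, had levels of 1.87, 2.59 and 2.23, a difference of 0.72 ± 0.20 into suspension. Sdf2l1, and Dnajb9 by the probe used, were the chaperone genes that stood highest in suspension.

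On return to plates the chaperones differed little from the non-adherent array. The median difference was 0.30, or 0.22 relative to all genes, and 12 of 15 genes were higher against 53.7% of all genes. Beyond the technical error 8 were higher, against 42.9%, and 2 lower, against 36.0%. None of the 15 passed 2-fold, against 15.6% of all genes higher and 16.3% lower. The sign of this median depended on scaling: it was -0.07 with no array scaling, and 8 of the 15 genes took the other sign under at least 1 scaling. Re-adherent against adherent cells, the median was -0.29, and 11 of 15 genes were lower against 43.9% of all genes, 8 of them by more than the technical error against 24.5%. The largest of these differences was that of Hsp90b1, -0.49 ± 0.20. None passed 2-fold, against 4.84% of all genes higher and 4.9% lower, and the list median was below 0 under every scaling tried.

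The ERSE and ERSE-II matches can be set beside these values. All 8 chaperone genes with a match were lower in suspension, between -0.80 and -0.27. Of the 5 chaperone genes with a window but no match, 3 were lower and 2 (Dnajb9 and Sdf2l1) higher by the probes used. The second probe of Dnajb9 was lower (-0.23), so its direction is not settled. The medians were -0.56 with a match and -0.40 without, and 53.2% of all genes were lower. Hyou1 and Manf, which had no window, were also lower, at -0.71 and -1.26. Whether a match goes with the direction was not tested. Outside the chaperones, Derl3, Syvn1 and Herpud1 held a match, and of these Derl3 was higher in suspension, while the differences of Syvn1 and Herpud1, 0.14 and -0.13, were within the technical error.

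**Figure D2:**
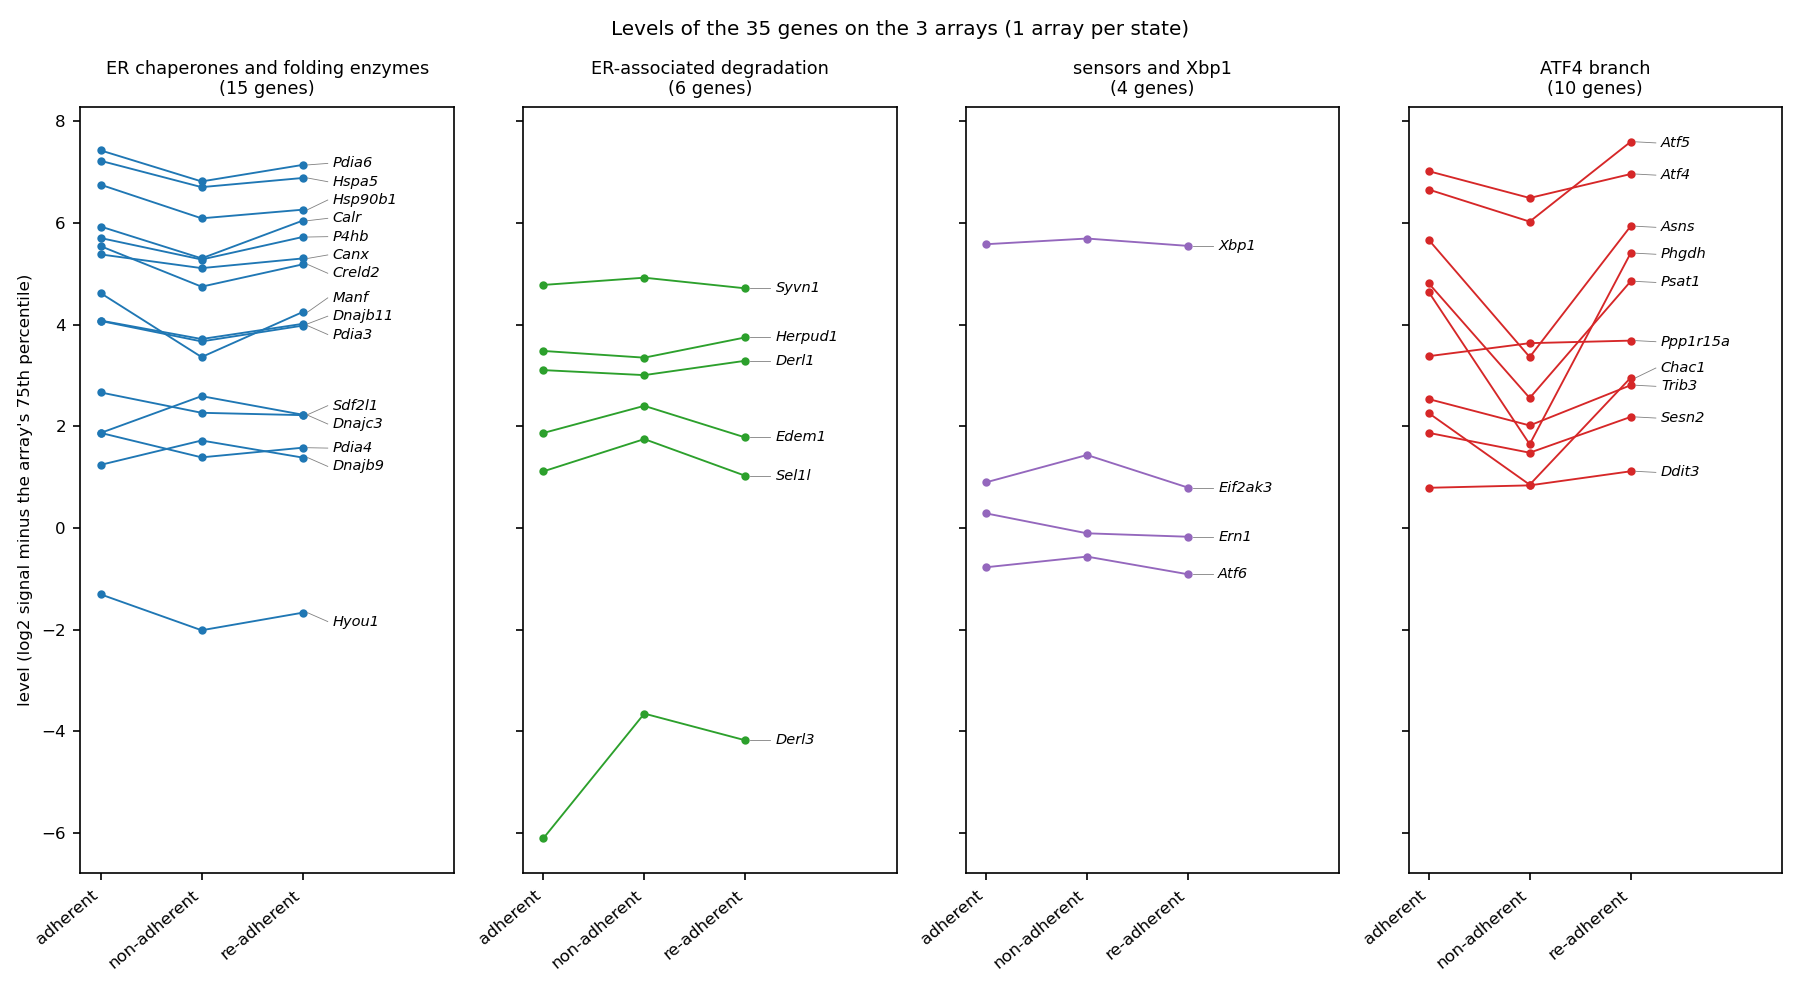
Levels of the 35 genes on the 3 arrays, 1 panel per group of genes; the y axis is log2 signal minus the array's 75th percentile, and each line joins the 3 arrays of 1 gene. Most chaperones dip slightly in suspension, while Phgdh, Asns, Psat1 and Chac1 of the ATF4 branch dip deeply and return.

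The genes of ER-associated degradation, which retrieve misfolded proteins and pass them to the proteasome, were higher in suspension for Sel1l, Edem1 and the dim Derl3. Their median difference into suspension was 0.34, or 0.41 relative to all genes. Of 6 genes, 4 were higher, against 46.8% of all genes, and 3 were higher by more than their technical error, against 36.5%. Derl3 is among these and passed the filter only through the arrays where it was high. Among genes well above background on all 3 arrays, 3 of 5 list genes were higher, against 6134 of 13480 genes. The list median was then 0.14, or 0.23 relative to all genes. Sel1l, the adaptor of the ubiquitin ligase complex, had levels of 1.11, 1.75 and 1.03. Edem1, a lectin-like protein that directs glycoproteins to degradation, had levels of 1.87, 2.40 and 1.78. Both were highest in suspension, with differences of 0.63 and 0.53 into it and of -0.72 and -0.62 out of it, and their re-adherent levels were within error of the adherent ones.

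Syvn1, the ubiquitin ligase of that complex, had levels of 4.78, 4.92 and 4.71, so that no pair of arrays differed by much more than the technical error. Herpud1, which organises the complex, had levels of 3.48, 3.35 and 3.75. Derl1, a membrane protein of the export channel, had levels of 3.10, 3.01 and 3.29 by the probe used, whereas its second probe gave 2.14, 2.72 and 2.07. The probes of Derl1 thus disagreed in direction, -0.10 against 0.58 into suspension, and no direction is given for it.

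Derl3, a related derlin, was dim, with levels of -6.10, -3.65 and -4.17, and was not well above background on the adherent array. Relative to adherent cells it was at least 3.10-fold higher in suspension and at least 2.15-fold higher after re-adhesion. The bounds rest on the dimmest signal that counted as well above background in adherent cells. It was the single member of its list past 2-fold in either comparison, and with normexp background correction 0 of 6 passed. Of 8 markers of B and plasma cells, secretory cells in which this machinery is prominent, 7 were not well above background on any array. The eighth, Cd79b, was well above background in suspension alone, the state in which Derl3 was highest, where it was at least 4.21-fold higher than in adherent cells. Its part in the Derl3 value was not tested.

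On return to plates 4 of the 6 degradation genes were lower, against 46.3% of all genes, with a list median of -0.37. With the mean of the probes of a gene, under which Derl1 changed sign, 5 of the 6 were lower. The re-adherent against adherent median was 0.06 and took the other sign under 4 of the 5 other scalings, reaching -0.41 with the E1A probes. Relative to all genes it was -0.01 with the percentile scaling and also with the E1A probes.

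Among the sensors the largest differences between arrays were those of Eif2ak3. Eif2ak3, which encodes PERK, had levels of 0.90, 1.44 and 0.79, a difference of 0.54 ± 0.20 into suspension and of -0.64 ± 0.20 on return. Ern1, which encodes IRE1α, had levels of 0.29, -0.10 and -0.17, lower on both later arrays than on the adherent one. Atf6 had levels of -0.77, -0.56 and -0.91. Xbp1 had levels of 5.58, 5.69 and 5.55, differences within the technical error in every pair of arrays. The total signal of its transcript was thus nearly the same in the 3 states. All 4 genes were lower after re-adhesion than in suspension, against 46.3% of all genes, with a median of -0.25, but only Eif2ak3 and Atf6 by more than the technical error. None of the 4 passed 2-fold on return, against 16.3% of all genes lower, although Eif2ak3 did so with no array scaling (-1.005).

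**Figure D3:**
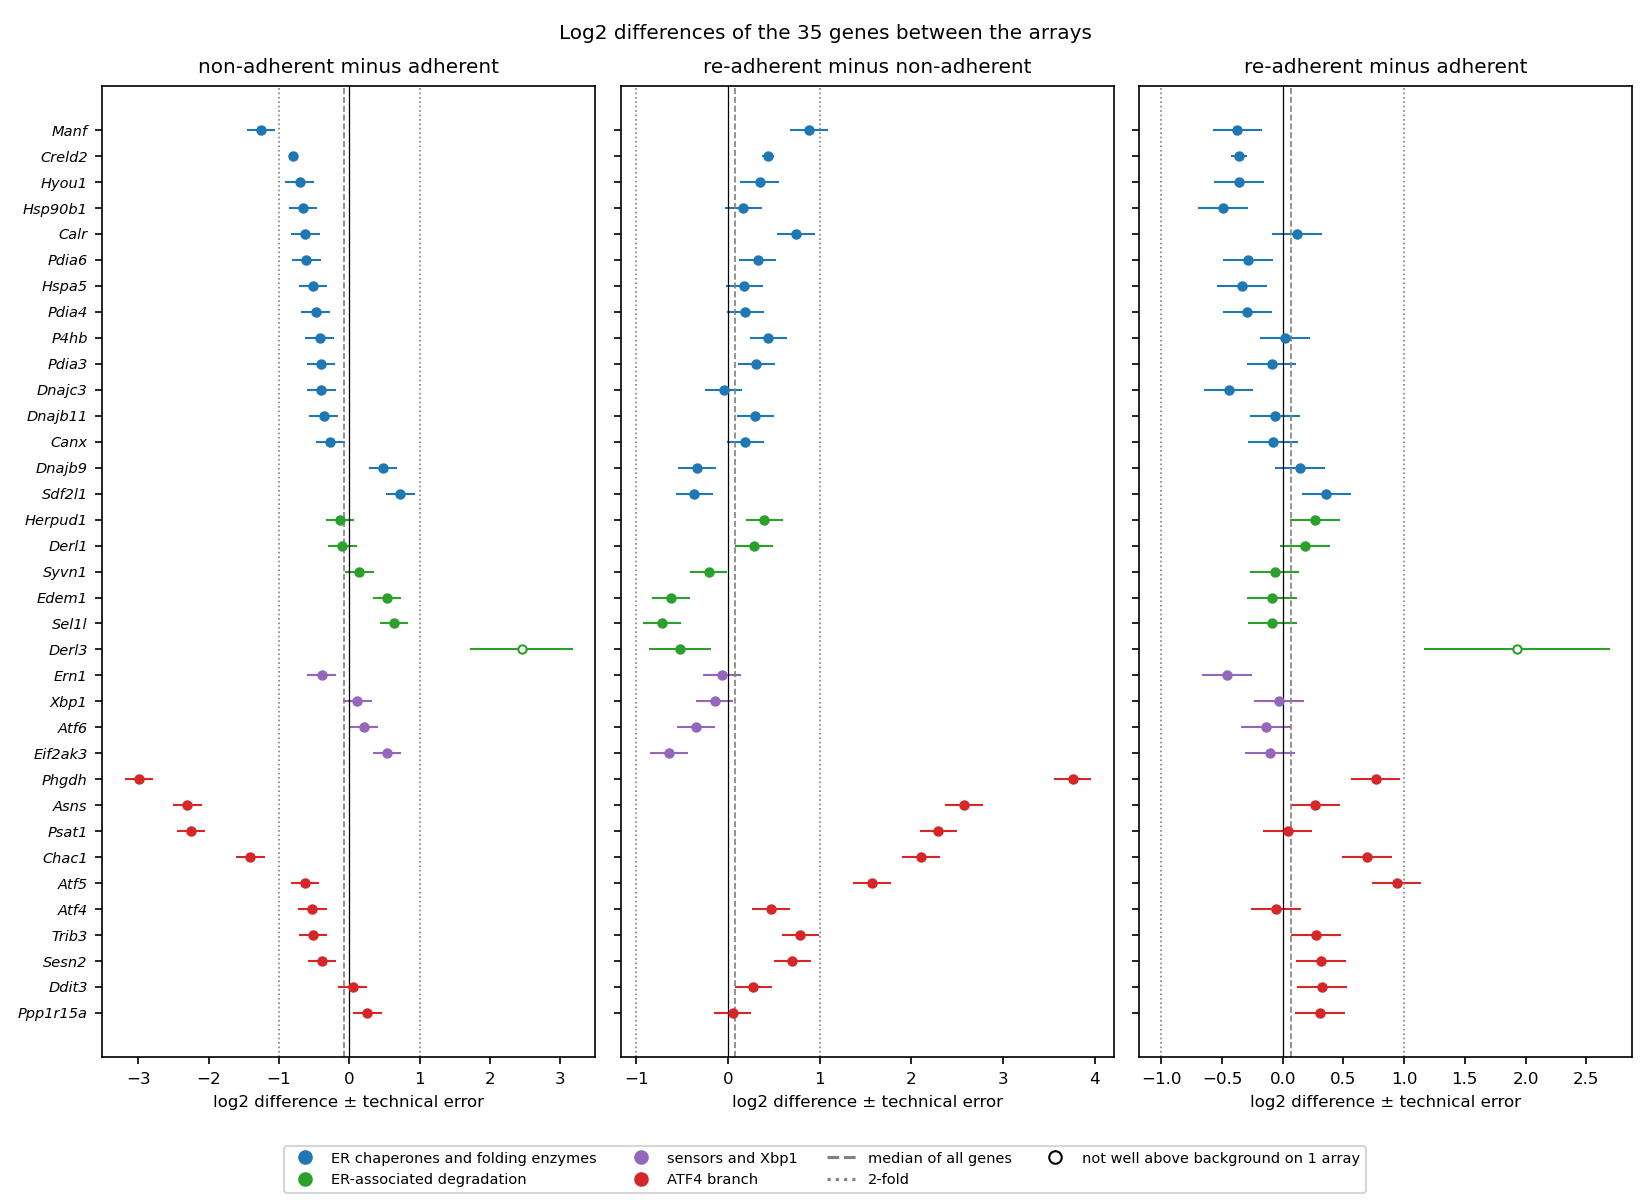
Log2 differences of the 35 genes in the 3 pairs of arrays, with the technical error of both spots as bars; dotted lines mark 2-fold and the dashed line the median of all genes, and each panel has its own x scale. Manf is the chaperone past 2-fold in suspension, at -1.26, and 4 genes of the ATF4 branch lie further out, at -1.41 to -2.99.

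The ATF4 branch held the largest differences among the 34 genes well above background throughout, and they were concentrated in part of the list. Into suspension, 4 of 10 genes were over 2-fold lower, against 14.7% of all genes, and 0 of 10 were over 2-fold higher, against 17.2%. On return, 5 of 10 were over 2-fold higher, against 15.6%, and 0 of 10 lower, against 16.3%. These comparisons share the non-adherent array, so their values stand side by side and the second does not repeat the first independently. The median difference was -0.58 into suspension and 1.18 on return (-0.51 and 1.101 relative to all genes), and neither median changed sign under another scaling.

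The largest differences lay in the enzymes of serine and asparagine synthesis. Phgdh, phosphoglycerate dehydrogenase, catalyses the first step from glycolysis to serine and had levels of 4.64 in adherent, 1.65 in non-adherent and 5.40 in re-adherent cells. Its signal was 7.95-fold lower in suspension (-2.99 ± 0.20) and 13.5-fold higher on return (3.76 ± 0.20). Its second probe gave -2.99 and 3.85.

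Among all 15394 genes, 2.38% had a lower difference into suspension than Phgdh and 1.86% a higher one on return. Psat1, the transaminase that follows Phgdh in serine synthesis, had levels of 4.81, 2.56 and 4.85, a difference of -2.25 into suspension (4.77-fold) and of 2.29 on return (4.90-fold). Its second probe, at a dimmer signal, gave -2.12 and 2.18. Asns, which makes asparagine from aspartate, had levels of 5.67, 3.36 and 5.93, and was 4.93-fold lower in suspension and 5.94-fold higher on return. For these 3 enzymes the non-adherent array stood apart below the other two.

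Chac1, which degrades glutathione, had levels of 2.26, 0.85 and 2.95, 2.65-fold lower in suspension and 4.29-fold higher on return. Of the CARE-bearing genes, Asns and Chac1 thus passed 2-fold in both steps, whereas Trib3 and Herpud1 did not. Phgdh and Psat1 passed it without a match in the window searched.

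Into suspension and on return, the transcription factors differed less than Phgdh, Psat1, Asns and Chac1. Atf4 had levels of 7.02, 6.49 and 6.96, a difference of -0.53 ± 0.20 into suspension and of 0.47 ± 0.20 on return, and its second probe gave -0.62 and 0.42. With quantile normalization, the value of Atf4 on return was -0.19. Its value into suspension ranged from -0.72 to -0.17 over the scalings, the latter within the technical error. Atf5, a related factor, had levels of 6.65, 6.02 and 7.59. With quantile normalization its difference on return was 0.92. That left 4 of the 10 branch genes over 2-fold higher, against 13.62% of all genes. By the percentile scaling Atf5 was 2.97-fold higher on return (1.57 ± 0.20). It ended 1.92-fold above the adherent array (0.94 ± 0.20), the highest of the branch in that pair. Ddit3, which encodes the stress factor CHOP, had levels of 0.79, 0.84 and 1.12, and its difference into suspension, 0.05, was within the technical error and took the other sign under E1A scaling.

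Trib3, a pseudokinase that restrains ATF4 signalling, had levels of 2.53, 2.02 and 2.81, and Sesn2, a leucine-sensing inhibitor of mTORC1, levels of 1.87, 1.48 and 2.18. Both were lowest in suspension and stood highest after re-adhesion, by 0.27 and 0.31 over the adherent array, although both of these values were negative with E1A scaling (-0.20 and -0.16). Ppp1r15a, which encodes the eIF2α phosphatase subunit GADD34, had levels of 3.38, 3.63 and 3.68, and was the branch member with the highest difference into suspension, 0.26 ± 0.20. Ddit3 and Ppp1r15a, which with Trib3 are commonly read as markers of ER stress, were thus not among the genes that were low in suspension.

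Between re-adherent and adherent cells, 9 of 10 branch genes were higher, against 56.1% of all genes, and 8 exceeded the technical error, against 34.8%. The median was 0.31, or 0.24 relative to all genes. With E1A scaling it became -0.16 and 7 of the 10 genes were lower, against 12789 of all 15394 genes. Relative to all genes the branch median stayed at 0.24. By the percentile scaling none of the 10 passed 2-fold, against 4.84% of all genes higher and 4.9% lower. The nearest were Atf5, Phgdh (0.76) and Chac1 (0.69).

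**Figure D4:**
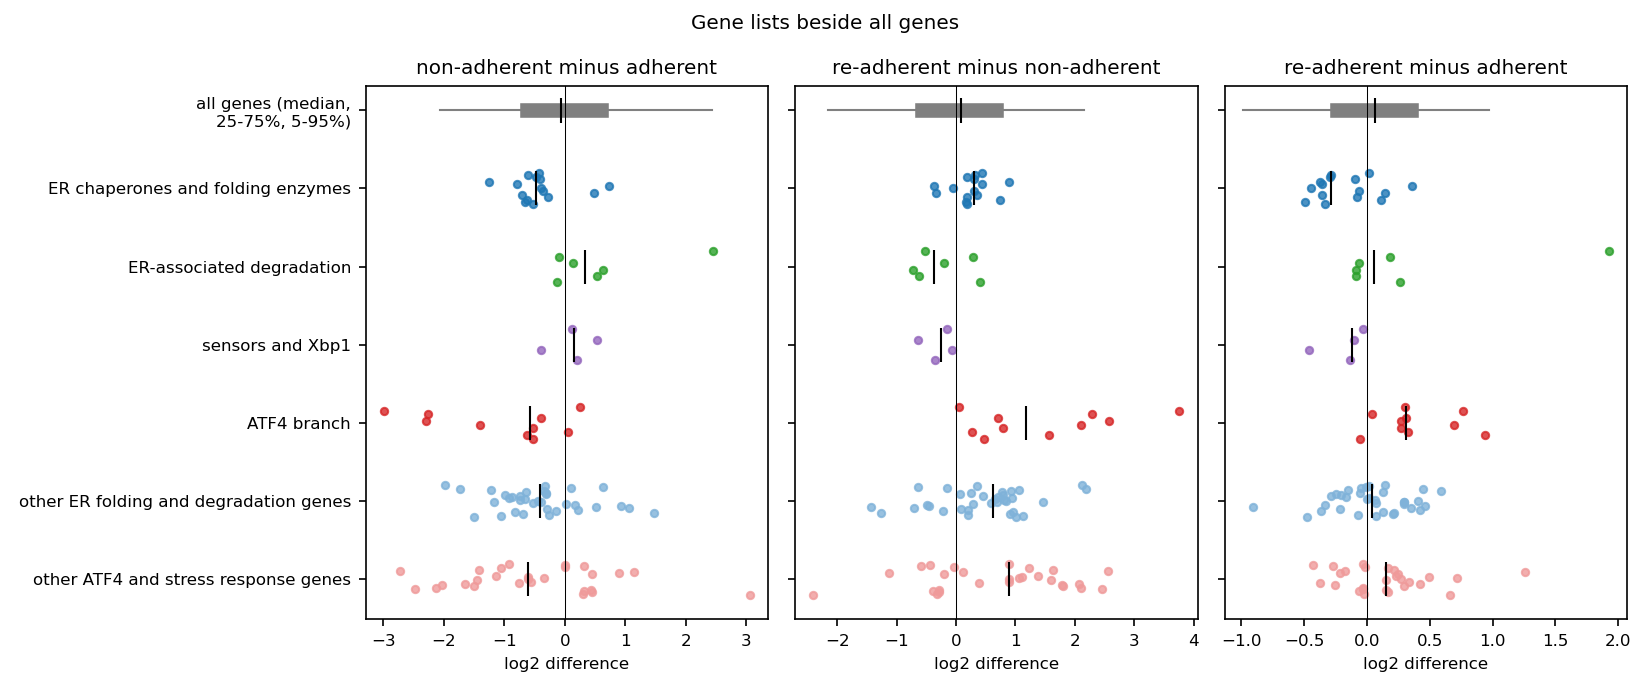
Log2 differences in the 3 pairs of arrays for the 4 groups of member genes and 2 lists of related genes, each point being 1 gene and each black bar a list median; the grey bars show all 15394 genes. Each panel has its own x scale, and the ATF4-branch medians are -0.58, 1.18 and 0.31.

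Genes of the same pathways outside the 35 were summarised from lists chosen by name, with earlier results of these data known. Of 27 measured further ATF4-related and stress genes, 10 lay more than 2-fold down and 2 more than 2-fold up in suspension, against 14.7% and 17.2% of all genes. On return 12 lay more than 2-fold up and 2 down, against 15.6% and 16.3%. The list medians were -0.61 and 0.89. The lowest in suspension were Cth, an enzyme of cysteine synthesis, at -2.72, and the amino acid transporters Slc7a5 and Slc7a1 at -2.48 and -2.13. The same 3 genes stood highest on return, at 2.55, 2.45 and 2.09. These values are those of the brightest probe, and a second probe of Slc7a5 gave -1.06 into suspension and 0.86 on return. Psph, the enzyme that completes serine synthesis after Psat1, was picked after its values were seen. Its differences were -1.65 and 2.07.

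The list was not uniform. Atf3, a transcription factor induced by many stresses, was 8.34-fold higher in suspension (3.06 ± 0.20) and 5.27-fold lower on return. Gdf15, a secreted stress cytokine, had a log2 difference of 1.14 into suspension and of 1.26 between re-adherent and adherent cells. Vldlr, a lipoprotein receptor, had differences of 0.90 into suspension and of -1.12 on return. Eif2ak4, which encodes the eIF2α kinase GCN2, was the lowest of this list between re-adherent and adherent cells, at -0.43.

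Of 34 further ER genes, 6 lay more than 2-fold down (17.65%) and 2 more than 2-fold up in suspension, with a median of -0.42, and 6 lay up (17.65%) and 2 down on return, with a median of 0.62. The shares of 17.65% were close to those of all genes, 14.7% down in suspension and 15.6% up on return. In the other direction the list had 5.88% in each step. All genes had 17.2% up in suspension and 16.3% down on return. The lowest in suspension were Serpinh1, the collagen chaperone HSP47, at -1.98, Creb3l2, a membrane-bound transcription factor linked to secretory capacity, at -1.74, and the isomerase Pdia5 at -1.495. On return Creb3l2 and Serpinh1 were the highest, at 2.19 and 2.12, followed by the ubiquitin-conjugating enzyme Ube2j1 at 1.46 by its brightest probe and 0.51 by a second. The highest in suspension were the oxidase Ero1b at 1.47 and the degradation factors Os9 at 1.06 and Edem2 at 0.92. Erlec1, a lectin of the degradation pathway, was the lowest on return, at -1.43.

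Markers of other cell types also differed between the arrays. In bulk RNA, fewer cells of a type and less RNA per cell cannot be told apart. The study's authors report that cell numbers fell during suspension culture, which they put down to death of detached cells. The non-adherent array thus covers the cells that remained, and the part of this loss in the differences was not tested. Of 16 measured macrophage markers, 15 were over 2-fold higher in suspension, against 17.2% of all genes. Their median was 2.69, and Ptprc, the gene of CD45, stood at 2.68. The summed normalised signal of the list was 367 in adherent, 2034 in non-adherent and 629 in re-adherent cells, in multiples of the array's 75th percentile, and Cd163 was not well above background on any of them. Of 10 endothelial markers 6 were over 2-fold higher in suspension and 8 over 2-fold lower on return, against 17.2% and 16.3% of all genes. Their summed signal was 30.7, 28.9 and 37.3. Kdr and Eng made up most of that sum and went against the counts, at -0.35 and -1.39 into suspension, although a second probe of Kdr gave 1.96. In re-adherent cells Tie1, Emcn and Cldn5 were not well above background. The summed signal of 9 cardiomyocyte markers was 1.22, 2.00 and 3.40, of which Tnnt2 made up 74.9%, 68.4% and 89.4%, and Actn2, Ryr2 and Pln were not well above background on any array. Of the 6 measured, 4 were lower on return, against 46.3% of all genes, with a median of -0.71. All 6 were higher into suspension, against 46.8%, with a median of 1.06. Tnni3 and Myl7 were well above background in suspension alone, so they were measured only through the state where they stood highest. No direction is read from these counts.

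The fibroblast markers were well above background on all 3 arrays, with summed signals of 1786, 907 and 1480. Acta2, the smooth muscle actin that defines myofibroblasts, was -6.64 into suspension and 6.57 on return, whereas the matrix proteoglycans Lum and Dcn went the other way, at 3.56 and 1.69 into suspension and -6.41 and -3.20 on return. The median of the 11 fibroblast markers was -0.55 into suspension and 0.12 on return. The part of these shifts in the differences of the chaperones, the degradation genes and the ATF4 branch was not tested.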

How the data were processed

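Arrays of 3 samples, 1 per state, were analysed. Per the file headers, the authors deposited spot intensity values from Agilent Feature Extraction 10.10.1.1, background-subtracted and spatially detrended, with spot errors and flags, and a matrix of scaled intensity values that equalled the processed signal times a constant per array (adherent 1.52, non-adherent 1.52, re-adherent 1.62). All arrays shared a slide and a scan. The normalization behind the matrix is not given in the sources used here.

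From these, log2 processed signal was reduced by the 75th percentile of each array (651, 697 and 541 intensity units over 59305 spots that were not controls). Spots flagged as outliers (154, 180 and 175) were left out, no spot was saturated, and repeated spots were averaged. Transcript names were matched without version to RefSeq symbols of GRCm38.p6 (21465 of 37881). A gene entered if 1 array or more showed a probe of it well above background, and its brightest such probe was used. The array design predates that assembly, so no probe coordinates are given.

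With 1 array per state there was no test: differences carry technical errors only, counts use a 2-fold mark beside the share of all genes, and the number of arrays limits the precision. The members and lists were chosen with earlier results of these data known. All 35 members are named, and of the other pathway genes the 3 largest differences in each direction per list and step, where both arrays were well above background. Not every gene that meets this rule is discussed. Alternatives covered scaling, background correction (limma 3.58.1, R 4.3.3, normexp with an offset of 50 on the median spot signal, since the mean signal planned for it was not a column of the files), filters, probe choice, bright patches and fold marks. The calculation, in Python 3.11.15, was tested on simulated data.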

Additional observations from a re-analysis of the deposited data

Results flagged for a closer look

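The files also hold spots for 96 external control sequences, which entered no comparison, and 3 of them were well above background in most of their spots on all 3 arrays. This is a signal outside the main measurement, and no addition of such controls is described in the labels.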

How the results depend on the processing

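No paired analysis was possible because each state has 1 array, and no array could be left out in turn for the same reason. For the chaperones and the ATF4 branch, the list medians relative to all genes kept their sign under the alternatives run. The chaperone median into suspension ranged from -0.42 to -0.27 and that of the ATF4 branch from -0.54 to -0.37. On return the chaperone median ranged from 0.03 to 0.22, and that of the ATF4 branch lay at 0.81 with quantile normalization, against 1.101 with the 75th percentile, a shift larger than the median technical error; the cause was not tested. A 1.5-fold mark gave, for the chaperones, 1 gene higher and 6 lower into suspension and 2 higher on return, and 3 genes of the ATF4 branch higher between re-adherent and adherent cells. A 4-fold mark gave 0 chaperones lower into suspension. The shares of all genes at the 1.5-fold and 4-fold marks are not given here, so these counts cannot be set against them. With the median of non-control spots as the scale, 1 gene of the ATF4 branch was over 2-fold higher between re-adherent and adherent cells. The share of all genes in that setting was 5.57%. Small differences depended on scaling: of 35 genes, 4 took the other sign under at least 1 scaling into suspension, 12 on return and 18 between re-adherent and adherent cells. Over all genes that last pair had 745 genes over 2-fold higher and 754 lower, which became 350 and 1897 with E1A scaling and 483 and 1205 with no scaling, and 551 and 1004 with the authors' values. On return, 2399 higher and 2504 lower became 1524 and 3598 with no scaling, 1685 and 3280 with E1A scaling and 1689 and 3271 with the authors' values, and into suspension 2647 and 2266 became 2237 and 2980 with E1A scaling. Low signal limits Derl3, for which differences are bounds.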
